A study of Mus musculus with 12 samples.

Results

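The 10 genes described here are the TGF-beta ligands Tgfb1, Tgfb2 and Tgfb3, the activin subunits Inhba and Inhbb, follistatin (Fst), the follistatin-like gene Fstl1, the receptors Tgfbr1 and Tgfbr2, and the induced matrix gene Tgfbi. They were picked by symbol, and each symbol matched 1 of the 21899 genes in the table. Colon RNA came from 12 mice given 2.5% DSS for 7 days (dextran sulfate sodium, which damages the gut epithelium and brings on colitis). In 6 mice (genotype CKO, called knockout) Pck1, the cytosolic phosphoenolpyruvate carboxykinase of gluconeogenesis, was deleted in intestinal epithelial cells, and 6 littermates (genotype WT, called control) kept the gene. All 12 mice received DSS, and the labels used here name no Cre driver, strain, age or sex.

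The TGF-beta family carries signals between the cells of a tissue. Its ligands are secreted dimers that bind a type II receptor, which phosphorylates a type I receptor, which in turn activates SMAD2 and SMAD3 to enter the nucleus with SMAD4. TGF-beta is stored in the matrix in a latent form until integrins, proteases or thrombospondin release it, whereas activin is released active and is held in check by follistatin. In the gut this family is known for restraining immune cells, driving matrix synthesis by fibroblasts and guiding repair of the epithelium.

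Library totals lay between 15348192 and 19138507 counts. Pck1 itself stood at 2.28 to 7.32 CPM (counts scaled to a common library size) in the knockout and 34.5 to 84.7 CPM in the control libraries, so the labels held in all 12. All 10 colon epithelial markers were found in every library. Of the libraries, control replicate 6 carried the most exocrine pancreas RNA, at 33682 TPM (read counts scaled for gene length and depth) over 9 markers against 67.7 to 4964 TPM in the others. Knockout replicate 4 lay within the control range for many of the genes below. For Inhba, Fst, Fstl1, Tgfb1 and Tgfbi, control replicate 4 lay above knockout replicate 4 and below every other knockout. For Inhbb it lay above knockout replicates 1, 4 and 6. Since whole tissue was sequenced, more cells of a type and more RNA per cell cannot be told apart.

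Activin subunits and follistatin were 2.94 to 3.11 times as high in the knockout as in the control colon, and Tgfb1, Fstl1 and Tgfbi were 1.60 to 1.75 times as high. Tgfbr2 was 1.34 times as high, and Tgfb2, Tgfb3 and Tgfbr1 differed by less than the spread between mice. These ratios compare group mean CPM values. None of the 10 genes passed the edgeR quasi-likelihood test with Benjamini-Hochberg adjustment over all tested genes (threshold 0.05), which called 0.0278% of 14393 genes higher and 0.0278% lower. At an unadjusted p under 0.05, 7 of the 10 were higher and 0 were lower, where all tested genes gave 13.1% higher and 9.48% lower. An adjusted p under 0.1 was reached by 6 of the 10, against 6.59% of all tested genes in the higher direction. Their median log2 fold change was 0.73, and that of all tested genes was -0.03.

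Inhba (ENSMUSG00000041324) encodes the subunit of activin A, an early signal of injured tissue. Its level was 11.0, 37.5 and 70.5 CPM (lowest, median and highest) in the knockout libraries, and 4.38, 8.65 and 23.8 CPM in the control libraries. Knockout replicate 4 was the only knockout below a control, and the other 5 knockouts lay above all 6 controls. The fitted log2 fold change was 1.63 with an SE of 0.46 (edgeR adjusted p = 0.0697). Spread between mice was wide, with group levels of 38.6 ± 20.5 CPM and 12.5 ± 8.09 CPM (SD, n = 6 each).

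Inhbb (ENSMUSG00000037035), the subunit of activin B, showed a similar difference with more overlap. The knockout libraries held 7.88, 13.1 and 31.3 CPM, and the control libraries 2.003, 4.44 and 12.6 CPM (lowest, median and highest). The highest control, replicate 4, lay above knockout replicates 1, 4 and 6, and the other 5 controls lay below every knockout. Its log2 fold change was 1.64 with an SE of 0.44 (edgeR adjusted p = 0.0636). The subunits did not peak in the same mice: Inhba was highest in knockout replicate 1 and Inhbb in knockout replicate 3. Inhba per Inhbb, as a ratio of TPM values, ran from 0.792 to 4.13 in the knockout and from 0.915 to 3.88 in the control libraries.

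**Figure D1:**
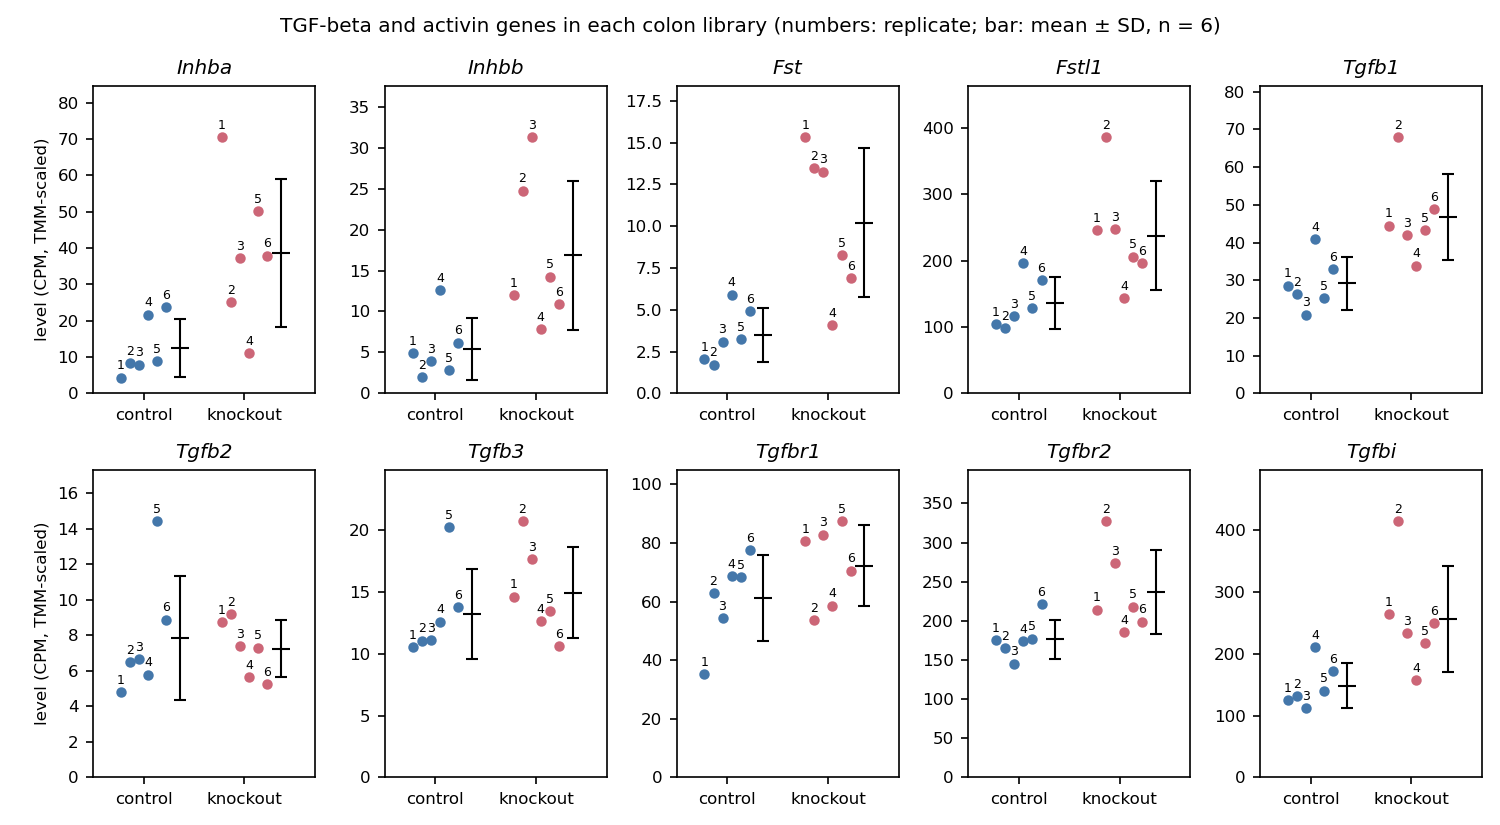
Level of each of the 10 genes in CPM (vertical axes, from 0) in 6 control (blue) and 6 knockout (red) libraries, numbered by replicate, with bars beside the points for the group mean and SD. For Inhba, Fst, Fstl1, Tgfb1 and Tgfbi 5 knockout libraries lie above every control and knockout replicate 4 lies below at least 1, while Tgfb2, Tgfb3 and Tgfbr1 overlap widely.

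Because the activin subunits differed between genotypes by nearly the same amount, the 250 bases before their start sites are shown, 5′ to 3′ on the gene's own strand, from RefSeq (GRCm38.p6). The Inhba window lies at chr13:16011601-16011850 on the plus strand, and the Inhbb window at chr1:119422249-119422498 on the minus strand. Capitals would mark the SMAD-binding motif CAGACA or the AP-1 motif TGANTCA on either strand, and neither window holds one.
Inhba: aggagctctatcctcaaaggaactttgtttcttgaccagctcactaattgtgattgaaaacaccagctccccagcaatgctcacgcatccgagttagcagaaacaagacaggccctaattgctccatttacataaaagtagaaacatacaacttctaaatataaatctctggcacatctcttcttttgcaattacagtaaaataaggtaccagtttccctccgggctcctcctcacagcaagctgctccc
Inhbb: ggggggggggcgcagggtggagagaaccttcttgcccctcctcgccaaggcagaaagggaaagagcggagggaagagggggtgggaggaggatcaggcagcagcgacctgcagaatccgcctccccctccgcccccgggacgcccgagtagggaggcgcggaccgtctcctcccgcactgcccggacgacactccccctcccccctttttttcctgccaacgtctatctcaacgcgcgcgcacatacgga
The letters differ in makeup: the Inhba window is 43.2% G and C with 3 CpG dinucleotides, the Inhbb window 68.0% with 21. The median of all 32851 promoter windows is 52.4% with 6. Of those windows 17.1% hold CAGACA and 6.75% hold TGANTCA.

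Fst (ENSMUSG00000021765), the secreted protein that binds activin and blocks it, had the smallest p of the 10 genes. Its level was 4.07, 10.8 and 15.3 CPM in the knockout libraries and 1.72, 3.16 and 5.90 CPM in the control libraries (lowest, median and highest). Again knockout replicate 4 was the only knockout within the control range. The log2 fold change was 1.55 with an SE of 0.36 (edgeR adjusted p = 0.0541). It had few counts per library, between 31 and 242.

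Fst and the summed activin subunits were each higher in every knockout but replicate 4 than in every control. Among those knockouts they ranked the libraries differently. Summed Inhba and Inhbb levels were 6.60 to 27.0 TPM in the knockout and 3.54 to 11.9 TPM in the control libraries. Per unit of Fst this sum was 2.36 ± 0.69 in the knockout and 2.22 ± 0.47 in the control (ratio of TPM values, SD, n = 6), so the ratio differed by less than its spread. Fstl3, a further activin-binding relative of follistatin, averaged 10.3 ± 3.76 CPM among knockouts, and among controls 6.53 ± 0.586 CPM (SD, n = 6; log2 fold change 0.65 ± 0.20, SE; edgeR adjusted p = 0.0820).

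**Figure D2:**
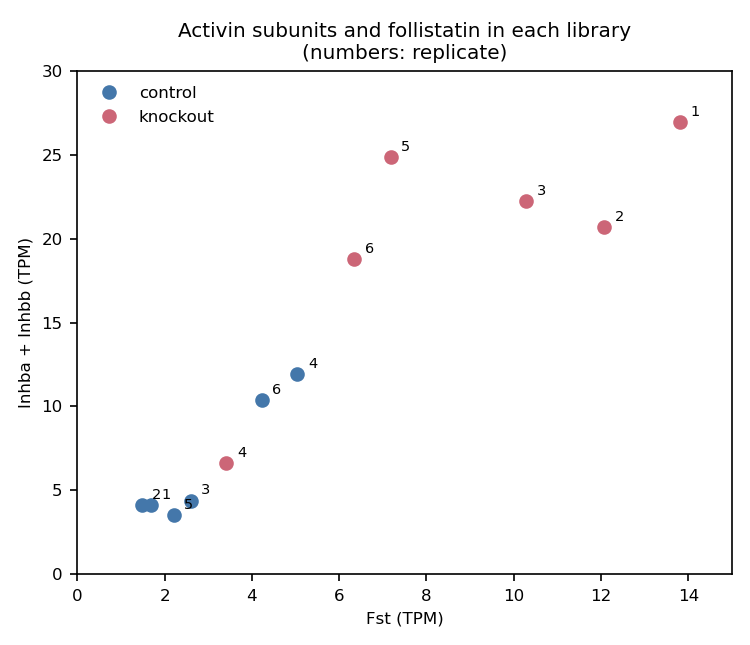
Summed Inhba and Inhbb (vertical axis, TPM) against Fst (horizontal axis, TPM) in each of the 12 libraries, numbered by replicate. Knockout replicate 4, at 6.60 TPM of activin subunits, lies between the lower controls and control replicates 4 and 6, and the other 5 knockouts lie at 18.8 TPM or more.

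Fstl1 (ENSMUSG00000022816), a secreted glycoprotein related to follistatin in sequence and made mainly by stromal cells, was far more abundant than Fst. Its level was 144, 226 and 386 CPM in the knockout libraries and 98.2, 122 and 196 CPM in the control libraries (lowest, median and highest). The fifth highest knockout, replicate 6 at 196.4 CPM, was almost level with the highest control, replicate 4 at 195.9 CPM, and knockout replicate 4 was lower. The log2 fold change was 0.81 with an SE of 0.23 (edgeR adjusted p = 0.0707). Fst came to 7.41% ± 2.45 of Fstl1 in the knockout and 4.23% ± 0.93 in the control (ratio of TPM values, SD, n = 6), and the groups overlapped.

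Tgfb1 (ENSMUSG00000002603), the main TGF-beta of immune cells, was the one TGF-beta ligand that was higher at an unadjusted p under 0.05. The knockout libraries held 33.8, 43.9 and 67.9 CPM, and the control libraries 20.9, 27.4 and 40.8 CPM (lowest, median and highest). Knockout replicate 4 fell within the control range and the other 5 lay above all controls, of which replicate 4 was the highest. The log2 fold change was 0.68 with an SE of 0.18 (edgeR adjusted p = 0.0615).

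Tgfb2 (ENSMUSG00000039239) and Tgfb3 (ENSMUSG00000021253), the less abundant ligands, showed no such difference. Tgfb2 stood at 5.25, 7.34 and 9.20 CPM in the knockout and 4.81, 6.58 and 14.4 CPM in the control libraries (lowest, median and highest), with a log2 fold change of -0.11 ± 0.25 (SE; edgeR adjusted p = 0.837). Its sign turned to 0.01 and 0.02 in limma fits of log2 TPM, and to 0.15 without control replicate 5. Tgfb3 stood at 10.6, 14.0 and 20.7 CPM in the knockout and 10.5, 11.9 and 20.3 CPM in the control libraries, with a log2 fold change of 0.18 ± 0.19 (SE; edgeR adjusted p = 0.639). Control replicate 5 was the highest control for both genes. Tgfb1 made up 78.3% ± 3.54 of the summed TPM of the 3 ligands in the knockout and 70.9% ± 7.94 in the control (SD, n = 6), with overlap between the groups. Whether the fold changes of the 3 ligands differ from one another was not tested.

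The windows before Tgfb1 and Tgfb2 are shown because these ligands differed most in fold change (250 bases, 5′ to 3′ on the gene's strand, RefSeq GRCm38.p6). Tgfb1 lies at chr7:25686752-25687001 on the plus strand and Tgfb2 at chr1:186705990-186706239 on the minus strand. Capitals mark CAGACA, found once before Tgfb2, beginning 204 bases before its start, and not in the Tgfb1 window. TGANTCA is in neither.
Tgfb1: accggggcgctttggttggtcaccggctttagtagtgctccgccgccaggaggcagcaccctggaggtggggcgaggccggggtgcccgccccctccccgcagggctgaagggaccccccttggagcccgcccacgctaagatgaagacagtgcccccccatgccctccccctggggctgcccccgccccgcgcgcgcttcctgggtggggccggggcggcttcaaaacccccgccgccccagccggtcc
Tgfb2: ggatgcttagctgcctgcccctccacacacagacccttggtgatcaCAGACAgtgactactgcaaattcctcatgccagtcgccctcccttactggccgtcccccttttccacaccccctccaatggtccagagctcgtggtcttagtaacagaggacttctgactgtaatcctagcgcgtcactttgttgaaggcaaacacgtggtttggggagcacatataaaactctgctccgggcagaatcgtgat
The Tgfb1 window is 75.2% G and C with 21 CpG dinucleotides, and that of Tgfb2 53.6% with 8. RefSeq windows matched 8 of the 10 genes, and among these CAGACA was found before Tgfb2 and in 1 of 2 windows of Tgfbr1.

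**Figure D3:**
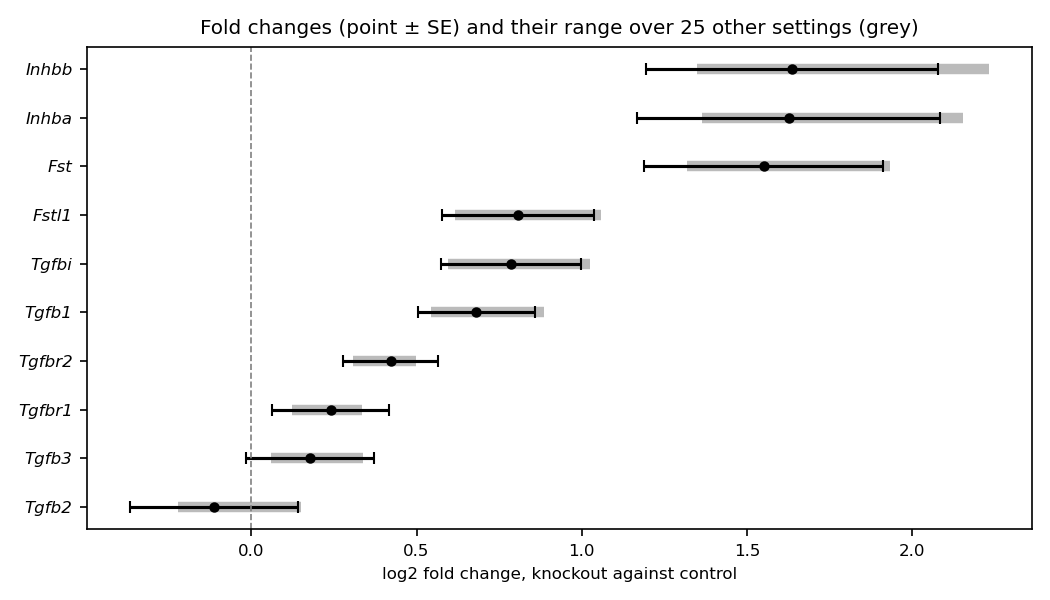
Log2 fold change of knockout against control for the 10 genes (points, with SE as bars) and its lowest and highest value over 25 other settings (grey). The activin subunits and Fst lie at 1.55 to 1.64, Fstl1, Tgfbi and Tgfb1 at 0.68 to 0.81, and the grey range of Tgfb2 spans 0.

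Of the receptors, Tgfbr2 was higher in the knockout at an unadjusted p and Tgfbr1 was not. Tgfbr2 (ENSMUSG00000032440), the type II receptor that binds TGF-beta first, stood at 186, 216 and 327 CPM in the knockout and 145, 175 and 221 CPM in the control libraries (lowest, median and highest). The groups overlapped, with control replicate 6 above knockout replicates 1, 4, 5 and 6. For Tgfbr2 the log2 fold change was 0.42 with an SE of 0.14 (edgeR adjusted p = 0.108). Tgfbr1 (ENSMUSG00000007613), the type I receptor kinase, stood at 53.7, 75.6 and 87.4 CPM in the knockout and 35.3, 65.7 and 77.6 CPM in the control libraries. Knockout replicate 2, the highest library for Tgfbr2, was the lowest knockout for Tgfbr1. The log2 fold change of Tgfbr1 was 0.24 ± 0.18 (SE; edgeR adjusted p = 0.455).

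Tgfbi (ENSMUSG00000035493), a matrix protein that TGF-beta induces and that macrophages and fibroblasts secrete, was the most abundant of the 10 genes per length. Its level was 157, 242 and 415 CPM in the knockout libraries and 112, 136 and 210.4 CPM in the control libraries (lowest, median and highest). Knockout replicate 4 lay below control replicates 4 and 6, and the other 5 knockouts above every control. Its log2 fold change was 0.78 with an SE of 0.21 (edgeR adjusted p = 0.0636). Tgfbi per Tgfb1, as a ratio of TPM values, was 4.31 ± 0.46 in the knockout and 4.05 ± 0.34 in the control (SD, n = 6), a difference smaller than the spread.

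Ordered by TPM, which allows levels of different genes to be compared, Tgfbi, Fstl1, Tgfbr2, Tgfb1 and Tgfbr1 came first in both genotypes. In the control they stood at 99.1 ± 26.1, 64.9 ± 19.7, 62.6 ± 9.37, 24.6 ± 6.43 and 20.8 ± 5.19 TPM (SD, n = 6). Tgfbi lay above Fstl1 and Tgfbr2 above Tgfb1 by more than either SD, whereas Fstl1 and Tgfbr2, and likewise Tgfb1 and Tgfbr1, differed by less than their SDs. In the knockout they stood at 179 ± 65.4, 119 ± 43.3, 87.0 ± 20.6, 41.0 ± 11.7 and 25.9 ± 4.60 TPM. Below them the order depended on genotype. In the control Tgfb3 led at 7.03 ± 1.71 TPM, ahead of Inhba at 4.08 ± 2.40, while Fst, Tgfb2 and Inhbb lay at 2.87 ± 1.44, 2.86 ± 1.15 and 2.33 ± 1.71 TPM. In the knockout Inhba led these at 12.7 ± 6.69 TPM, followed by Fst at 8.85 ± 3.89, Tgfb3 at 8.32 ± 2.01 and Inhbb at 7.37 ± 3.67 TPM, whose SDs overlap, and Tgfb2 was last at 2.82 ± 0.716 TPM.

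None of the 10 genes had groups without overlap, a separation that 0.882% of tested genes showed in the higher direction. For 5 of the 10, at least 5 knockout libraries lay above every control, as did 4.70% of all tested genes. Calls on these genes turned on the test, on 3 libraries and, for Fst, on the scaling (edgeR adjusted p = 0.0468 with library size only). DESeq2 called 7 of the 10 higher (all tested genes: 7.13%), limma voom 0 (0.208%), limma voom with sample quality weights 7 (10.8%) and limma-trend on log2(TPM + 1) 2 (2.47%). The authors' deposited table has 6 of the 10 at an adjusted p under 0.05, and Tgfbr2 at 0.0531. In the higher direction 4.65% of all its 21899 genes were at that level, whereas the DESeq2 share is of 15352 genes. The deposited unadjusted p-values equal those of the DESeq2 fit for all 18130 genes compared (relative tolerance 0.0001). These are therefore 1 test with different adjustment and not separate evidence. In the authors' deposited table the log2 fold changes are 1.62 for Fst, 1.66 for Inhbb, 1.63 for Inhba, 0.87 for Fstl1, 0.85 for Tgfbi and 0.74 for Tgfb1. In edgeR without knockout replicate 4, 6 of the 10 were called higher (6.02%), as many as without control replicate 4 (5.03%) or without both (8.40%). These 6 were Inhba, Inhbb, Fst, Fstl1, Tgfb1 and Tgfbi each time, with log2 fold changes of 0.89 to 2.23 when both libraries were left out. Knockout replicate 4 was the lowest knockout for these 6 genes, and control replicate 4 the highest control for all but Inhba. Leaving them out therefore widens the difference by construction, and these calls are no separate support. The labels give no reason to leave either library out. Without control replicate 6 Fst alone passed (edgeR adjusted p = 0.0493; 1.88% of tested genes), and without any other single library 0 of the 10 passed.

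**Figure D4:**
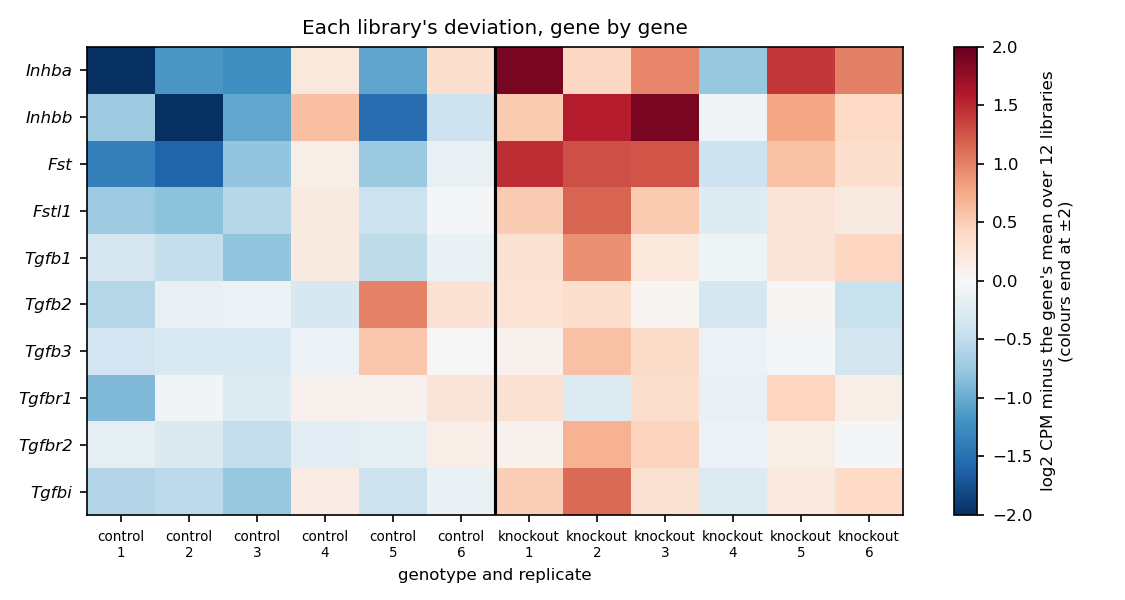
Deviation of log2 CPM from each gene's mean over 12 libraries, by gene (rows) and library (columns, control left and knockout right of the line), red for above and blue for below. Knockout replicate 4 is below the mean for all 10 genes, and control replicate 4 above it for 7.

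Within a genotype the genes varied in different company. After each genotype's mean was taken out of log2 CPM, Tgfb1 and Tgfbi followed each other closely over the 12 libraries (Pearson r = 0.95), as did Fstl1 with Tgfbi (0.93) and with Fst (0.90). Tgfb2 went with Tgfb3 (0.87), and Inhba with Tgfbr1 (0.80) and Fst (0.77). Tgfb1 and Tgfbr1 were unrelated (0.03). These values describe 12 libraries that all genes share, and no test was made.

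Over 14116 other genes, those most like each of the 10 were found with the same measure. For Inhba these were Tnfsf13b, Grem1 and Cep170 (r = 0.97, 0.96 and 0.95). For Inhbb they were Pappa2, Adgrf5 and Selp (0.96, 0.94 and 0.93), and for Fst Rnd1, Adamts1 and Pde10a (0.95, 0.94 and 0.93). Tgfb1 was most like C1ra, Inpp5d and Msn (0.98, 0.97 and 0.97), Tgfbi like Cyth4, Msn and Ncf1 (0.98, 0.98 and 0.98), and Fstl1 like Siglece, Fbln2 and Renbp (0.97, 0.97 and 0.96). Tgfb2 was nearest to Gpm6a, Upk3b and Ptprz1 (0.91, 0.88 and 0.88), and Tgfb3 to Rcan1, Cryab and Msln (0.92, 0.92 and 0.92). Tgfbr1 was nearest to Cadm1, Tmem47 and Prrg1 (0.98, 0.98 and 0.97), and Tgfbr2 to Rbpms, Ltbp1 and Kif5a (0.98, 0.97 and 0.97). Ltbp1, which tethers latent TGF-beta to the matrix, is the one gene among them that the pathway lists also hold.

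Genes that store and activate TGF-beta were mostly higher in the knockout. Of 14 measured, 10 were higher and 0 lower at an unadjusted edgeR p, and 0 passed after adjustment (median log2 fold change 0.60, all 14 above 0). Over all tested genes, 13.1% were higher and 9.48% lower at an unadjusted p under 0.05. Thbs1, the thrombospondin that activates latent TGF-beta, averaged 624 ± 281 CPM among knockouts, and among controls 212 ± 113 CPM (SD, n = 6; edgeR adjusted p = 0.0540). Lrrc32, which displays latent TGF-beta on the surface of regulatory T cells and endothelium, had a log2 fold change of 0.84 ± 0.20 and Ltbp1 of 0.66 ± 0.17 (SE). Mmp14, a membrane-bound protease, was at 0.51 ± 0.17. Averaged over all 12 libraries Mmp14 and Thbs1 were the most abundant of this list. Mmp14 came first in the control, at 111 ± 21.6 against 65.0 ± 32.6 TPM (SD, n = 6). In the knockout Thbs1 had the higher mean, at 200.4 ± 89.5 against 162 ± 45.3 TPM, a difference smaller than either SD.

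Co-receptors and the remaining receptors split. At an unadjusted p 4 of 9 tested were higher and 1 lower, and 0 passed after adjustment (edgeR, median 0.16). The shares over all tested genes at that p were 13.1% higher and 9.48% lower. Tgfbr3, the betaglycan co-receptor, had a log2 fold change of 0.96 ± 0.27 and endoglin (Eng), a co-receptor of endothelium, of 0.76 ± 0.22 (SE). Acvr1c, the type I receptor ALK7, was the lower one, at 2.72 ± 0.632 against 5.40 ± 1.68 CPM (SD, n = 6; log2 fold change -0.99 ± 0.24, SE; edgeR adjusted p = 0.0570). Acvr1b, the main type I receptor of activin, was at 0.14 ± 0.10 (log2 fold change, SE). By mean TPM it was the most abundant of the list in the control, at 40.3 ± 4.34 against 29.3 ± 9.62 for Eng (SD, n = 6). In the knockout Eng had the highest mean, at 51.9 ± 18.0 against 46.1 ± 4.67 TPM, a difference smaller than the SD of Eng. Of the remaining activin-class ligands and antagonists 6 of 17 reached testing levels, with Fstl3 higher and Lefty1 (-0.61 ± 0.24) and Bambi (-0.37 ± 0.16), both inhibitors of the pathway, lower at an unadjusted p (log2 fold change, SE; median -0.03).

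SMAD genes and their brakes differed little. At an unadjusted edgeR p 2 of 14 were higher, 1 was lower and 11 did not pass, and 0 passed after adjustment (median log2 fold change 0.02). These counts were near the shares over all tested genes, 13.1% higher and 9.48% lower. The lower one was Smad7, the inhibitory SMAD that TGF-beta itself induces, at 22.8 ± 3.69 against 30.4 ± 4.88 CPM (SD, n = 6; log2 fold change -0.41 ± 0.13, SE; edgeR adjusted p = 0.0927). Ski (0.24 ± 0.08) and Tgif1 (0.20 ± 0.08), corepressors of SMAD complexes, were the higher ones (log2 fold change, SE). Smad4, the shared SMAD, stood at 0.24 ± 0.13 and Ppm1a, a SMAD phosphatase, at 0.04 ± 0.09.

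Among 28 measured genes known to respond to TGF-beta, 15 were higher and 1, Smad7, was lower at an unadjusted edgeR p, 12 did not pass, and 0 passed after adjustment (median 0.46). All tested genes gave 13.1% higher and 9.48% lower at that p. Tnc (1.32 ± 0.26), the matrix protein tenascin C, and the collagen crosslinking enzymes Loxl2 (0.96 ± 0.20) and Lox (1.51 ± 0.35) had the smallest p (log2 fold change, SE), with edgeR adjusted p values of 0.0512, 0.0531 and 0.0541. Collagens Col3a1 (0.79 ± 0.27) and Col1a2 (0.60 ± 0.19) had the highest TPM averaged over the 12 libraries. Pmepa1 (0.08 ± 0.13) and Skil (0.00 ± 0.19), feedback genes named after their values were seen, stood near 0. Smad7, Skil and Tgif1 are in the SMAD list too, Ltbp2 in the storage list, and Col1a1, Col1a2 and Col3a1 are also fibroblast markers.

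**Figure D5:**
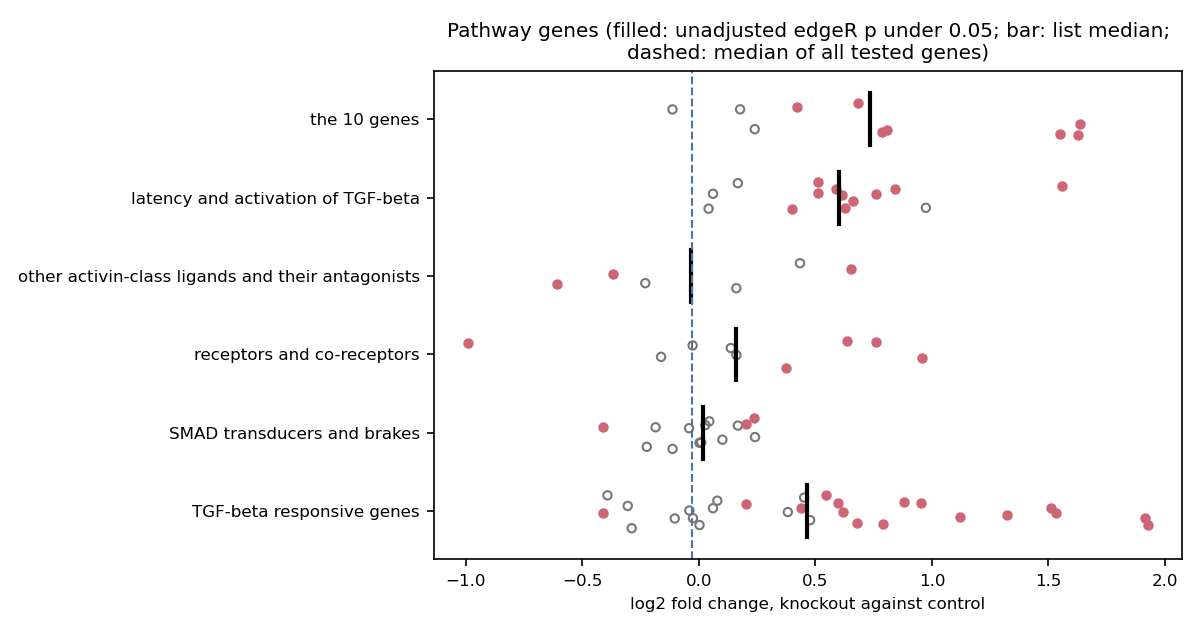
Log2 fold change of each tested gene of the 10 and of 5 pathway lists (points, filled where the unadjusted edgeR p is under 0.05), with each list's median as a bar and the median of all tested genes as a dashed line. The storage and activation list (median 0.60) and the responsive genes (0.46) lie to the right of 0, and the SMAD list centres at 0.02.

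Most markers of fibroblasts, macrophages and monocytes, neutrophils and endothelium were higher in the knockout, and those of smooth muscle and T and NK cells were not. At an unadjusted edgeR p, 10 of 12 fibroblast, 8 of 12 macrophage and monocyte, 8 of 10 neutrophil and 8 of 10 endothelial markers were higher and 0 lower, with 0 called after adjustment. For these and the marker counts below, the shares over all tested genes were 13.1% higher and 9.48% lower. Summed fibroblast markers ran from 2217 to 5274 TPM in the knockout and from 1339 to 2697 TPM in the control libraries, with knockout replicate 4 the lowest knockout and control replicates 4 and 6 the highest controls. Macrophage markers summed to 985 to 1971 TPM and 656 to 1137 TPM, neutrophil markers to 625 to 3387 TPM and 253 to 1531 TPM, and endothelial markers to 236 to 496 TPM and 162 to 257 TPM (knockout and control). The neutrophil sums of knockout replicates 5 and 6, at 632 and 805 TPM, lay below that of control replicate 4, at 1531 TPM. None of the markers in these 4 lists was at 0 in any library. Epithelial markers were not higher (5 of 10 lower at an unadjusted p) and summed to 11659 to 15450 against 12044 to 16283 TPM. Of smooth muscle markers 0 of 10 were higher and 3 lower, of T cell and NK cell markers 2 of 9 tested were higher and 1 lower, and of exocrine pancreas markers 0 of 9 were higher and 1 lower. Ncr1, an NK cell marker, and Cela3b, a pancreatic one, were at 0 in some libraries. The part that these cell types take in the levels of the 10 genes was not tested.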

How the data were processed

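Colon RNA was extracted with Trizol and sequenced from SMARTER mRNA-Seq libraries, per the labels' protocols. The authors deposited 1 table of the series, with raw read counts and TPM per library, mean TPM per group, a log2 fold change, and p-values, raw and adjusted, from a test that the sources used here do not name but whose raw p-values match DESeq2's. Per the file headers the counts are unnormalised and TPM is scaled for length and depth. Aligner, counter and strand setting: not given in the sources used here. For the build, the submitters' processing notes list GRCm38, mm10 and mm39 without roles. By GENCODE M21, exons of antisense or predicted transcripts on the other strand share 2.14% of the exon bases of Tgfb2, 2.51% of Fst, and 4.82% and 7.60% of Tgfb3. Columns of per-sample values from no sample of the series numbered 0. The labels number mice 1 to 6 in each group. The p-values set the difference between groups against the spread between these mice.

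The counts went into edgeR 4.0.16 (R 4.3.3): filterByExpr (minimum count 10, minimum total 15, groups of 6), TMM scaling, and the quasi-likelihood F test of knockout against control with no covariate over 14393 genes, adjusted by Benjamini-Hochberg. SE is the absolute log2 fold change divided by the square root of F, and CPM uses TMM library sizes. For correlations, log2 CPM had a prior count of 2. All 10 genes passed the filter. The lowest chi-square per gene over 66 library combinations was 19.4, so no library was a copy of another. On simulated counts the fit recovered 83% of genes set to a log2 change of 1 and 97% of those set to 2, with 3 of 183 calls false. Each simulated gene varied on its own, with no variation shared across a library. The simulation therefore cannot tell how the fit handles libraries that deviate in many genes at once. The genes, lists and rules were chosen with earlier results of these data known. From each list the text names any called gene or else the 3 with the smallest p, the 2 of highest mean TPM, and the 3 genes most like each of the 10. Alternatives were DESeq2 1.42.0, limma 3.58.1 on counts and on log2(TPM + 1) or log2(TPM + 0.1), other scalings and filters, robust estimation, the replicate number as a block, and libraries left out.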

Additional observations from a re-analysis of the deposited data

Results flagged for a closer look

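Tgfb3 in control replicate 5 stood at 20.3 CPM, apart from the other 5 controls, the nearest of which was at 13.8 CPM. The gap was 0.666 of the group's whole range, above Dixon's 95% critical value for a group of 6. It was the 1 case in 20 groups (10 genes in 2 genotypes), and chance gives about 1 in 20.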

How the results depend on the processing

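The edgeR count of 4 genes higher and 4 lower over the whole table moved under most other settings. It became 33 higher and 19 lower with DESeq2 size factors, 230 and 45 with library size only, 32 and 21 with robust estimation, 1095 and 416 in DESeq2, 30 and 19 in limma voom, 1549 and 1339 in voom with sample weights, 355 and 48 on log2(TPM + 1), 365 and 48 on log2(TPM + 0.1), and 1209 and 702 with both replicate 4 libraries left out. Leaving out 1 library gave 0 to 870 higher and 2 to 402 lower. Of the 10 genes, 0 were called higher in the fit reported; library size only gave 1, DESeq2 7, voom with sample weights 7, either TPM fit 2, both replicate 4 libraries left out 6, and leaving out 1 library 0 to 6. None was called lower under any of the 25 alternatives. Tgfb2 changed sign, to 0.0093 and 0.020 (log2) in the TPM fits and to 0.15 without control replicate 5 (-0.22 to 0.15 over single libraries left out), and the other 9 stayed above 0 throughout. The lowest and highest log2 fold changes were 1.36 and 2.15 for Inhba, 1.35 and 2.23 for Inhbb, 1.32 and 1.93 for Fst, and 0.54 and 0.89 for Tgfb1. With the replicate number as a block, 0 genes were higher, 1 was lower and 0 of the 10 were called (smallest adjusted p 0.259). No label says that the numbers pair the mice. With each genotype's mean taken out, same-numbered libraries correlated between -0.50 and 0.08, and none was most like its own number. Such values cannot exclude a pairing, as paired mice need not vary alike. The cause of these changes was not tested. Counts of 31 to 242 for Fst, 36 to 474 for Inhbb and 78 to 237 for Tgfb2 per library limit their precision.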
